A study of Mus musculus with 24 samples.

Results

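Antigen presentation was followed through 10 genes chosen by name, of 45777 genes in the deposited table. The class I arm held 6 genes, H2-K1, H2-D1, B2m, Tap1, Tap2 and Psmb8, and the class II arm held 4, Cd74, H2-Aa, H2-Ab1 and H2-Eb1. All 10 passed the filter on low counts. RNA from prefrontal cortex was sequenced in 24 libraries, 6 in each of 4 groups, all from wild-type males sampled as adults. Control mice were reared with the dam and had no treatment, and MS mice had undergone maternal separation, a rearing stress in which the dam is taken from her pups. Control_EC12 and MS_EC12 mice had the same rearing and were given EC-12, a heat-killed preparation of the gut bacterium Enterococcus faecalis, for 5 weeks. The series title names social deficit after maternal separation, and its reversal by EC-12, as the subject of the study. Whether the 6 libraries of a group are 6 animals is not stated, so p-values measure only the spread among libraries, which may be partly technical.

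Class I molecules display peptides made inside the cell. The heavy chains H2-K1 and H2-D1 pair with the light chain B2m, the immunoproteasome subunit Psmb8 helps to cut the peptides, and Tap1 and Tap2 form the transporter that carries them into the endoplasmic reticulum. Class II molecules display peptides from material taken up by professional presenting cells; H2-Aa pairs with H2-Ab1, H2-Eb1 is the beta chain of the second class II molecule, and Cd74 is the invariant chain that guides class II molecules to the compartment where peptides are loaded. In the brain, microglia, border macrophages and endothelium are known sources of these transcripts, and interferon is a known inducer of both arms.

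Of the members, 8 lie on chromosome 17 (GRCm38.p6, the assembly behind mm10), within 1271.5 kb from H2-K1 (chr17:33996012-34000619) to H2-D1 (chr17:35263094-35267497). Tap1, Psmb8, Tap2, H2-Ab1, H2-Aa and H2-Eb1 lie together in 129.1 kb of that span. Tap1 starts 226 bases from the start of Psmb9, a further immunoproteasome subunit. B2m is on chromosome 2 (chr2:122147687-122153082) and overlaps Patl2, and Cd74, on a further chromosome, overlaps the microRNA gene Mir5107. How reads were assigned to genes, and whether by strand, is not given in the sources used here. Reads of these overlaps, and of the closely related class I heavy chains, could have been divided between genes.

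The promoters are shown because class I and class II genes are known to share an upstream module, in which an X box and a Y box are bound by the RFX, CREB and NF-Y factors with NLRC5 or CIITA. RefSeq promoters of 7 members were used. The motifs searched on both strands of the 250 bases before the start were ATTGG (Y box core), TGACG (X2 box core) and the interferon element core, GAANNGAAA or GAAANNGAA. The sequences below are the 160 bases before the start, in the direction of the gene, with every match in capitals; they lie at chr17:35262934-35263093 (H2-D1, plus strand), chr2:122147527-122147686 (B2m, plus strand), chr17:34287824-34287983 (H2-Aa, minus strand) and chr17:34305707-34305866 (H2-Eb1, plus strand).
H2-D1: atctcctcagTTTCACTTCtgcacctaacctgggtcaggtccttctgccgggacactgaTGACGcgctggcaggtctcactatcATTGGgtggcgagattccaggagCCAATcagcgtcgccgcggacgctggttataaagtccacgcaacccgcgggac
B2m: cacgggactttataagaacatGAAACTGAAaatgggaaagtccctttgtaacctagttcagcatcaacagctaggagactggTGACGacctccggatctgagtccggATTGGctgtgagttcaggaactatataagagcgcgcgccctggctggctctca
H2-Aa: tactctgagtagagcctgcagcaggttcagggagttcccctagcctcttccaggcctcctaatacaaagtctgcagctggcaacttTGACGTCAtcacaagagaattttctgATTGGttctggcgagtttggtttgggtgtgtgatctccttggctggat
H2-Eb1: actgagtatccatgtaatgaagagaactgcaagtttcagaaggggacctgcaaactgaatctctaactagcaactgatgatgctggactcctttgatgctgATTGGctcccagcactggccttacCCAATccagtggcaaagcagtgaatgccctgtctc
The Y box core was in 6 of the 7 promoters and in 33.8% of all 32851 RefSeq promoters. The X2 core was in 5 of 7, against 17.8% of all promoters, and the interferon core was in 3 of 7, against 12.5%. H2-K1, H2-D1 and B2m held all 3 motifs, as did 0.679% of all promoters. In these class I genes an X2 core and a Y core began 25 bases apart, and in H2-Aa 26 and 23 bases apart, where TGACG matches on both strands overlap. H2-Eb1 held 2 Y cores and no match to the other motifs in this window. The matches are letters in a window and were not tested for binding.

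B2m, H2-D1 and H2-K1 were more abundant than the 4 class II genes, while Tap1, Tap2 and Psmb8 lay within or below the range of the class II genes. Levels between genes are given in TPM, the authors' deposited measure per transcript length, as the mean ± SD of 24 libraries. B2m stood highest at 216 ± 24.2 TPM, followed by H2-D1 at 55.0 ± 9.49 and H2-K1 at 33.0 ± 6.14, and each exceeded the next in 24 of 24 libraries. Cd74 led the class II arm at 10.2 ± 2.74 TPM. H2-Aa (6.74 ± 1.98 TPM) and Tap2 (6.73 ± 1.03 TPM) could not be ordered, H2-Aa being higher in 11 of 24 libraries. H2-Ab1 at 5.95 ± 1.70, Psmb8 at 4.92 ± 1.15 and H2-Eb1 at 4.02 ± 0.947 TPM followed, and Tap1 was lowest at 2.00 ± 0.450 TPM. H2-K1 and H2-D1 together averaged 87.9 TPM against 16.7 TPM for the 3 class II chains, a ratio from 3.80 to 7.69 with a median of 5.32. H2-Ea, the alpha partner of H2-Eb1, is listed as a pseudogene with 0 counts in 24 libraries.

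Libraries differed in ways that bear on these genes. Total counts ran from 26250197 to 39252382. The slope of expression on GC content (log2 CPM minus the gene's mean, per 10 percentage points of GC) was below 0 in 17 libraries and above 0 in 7. All 6 Control, 5 MS, 4 Control_EC12 and 2 MS_EC12 libraries were below 0. The median slope was -0.136 in Control, -0.191 in MS, -0.126 in Control_EC12 and 0.314 in MS_EC12. The slope thus moved with the supplement, mainly in MS_EC12, and differed by rearing among the supplemented libraries. Except for B2m, whose transcripts had 41.2% GC, the members had 50.5% to 58.0% GC, near or above the median of 50.9% for the genes tested. Results are therefore given also from the 17 libraries with a slope below 0 and with the slope as a covariate.

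Levels between groups are given in CPM, counts scaled to the library total after TMM, and differences as log2 fold changes ± SE from edgeR's quasi-likelihood test over 18380 genes, with Benjamini-Hochberg adjusted p-values and a threshold of 0.05. Comparisons with a common group, such as MS and Control_EC12 with Control, share its libraries and are not independent. In bulk tissue, fewer cells of a type and less RNA per cell cannot be told apart.

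**Figure D1:**
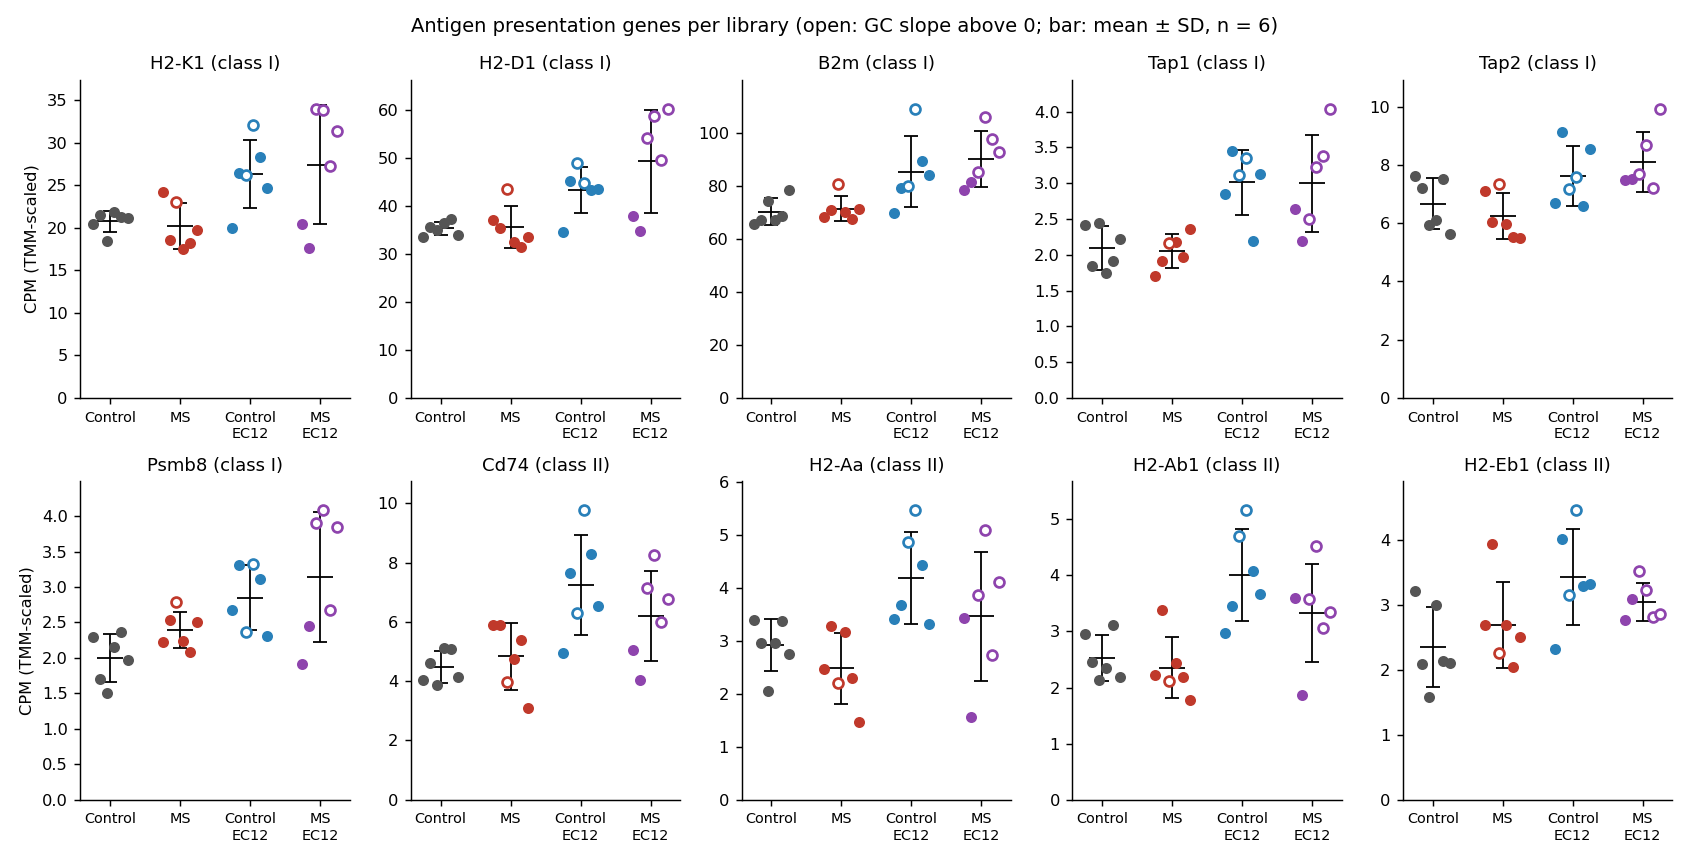
CPM of each member (vertical axis from 0) in the 6 libraries of each group (horizontal axis), with the mean ± SD; open circles are libraries whose GC slope was above 0. The MS_EC12 libraries with a slope below 0 had 20.4 and 17.6 CPM of H2-K1, under the 27.3 to 34.0 CPM of the open circles.

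Averaged over rearing, EC-12 was accompanied by higher expression of 9 of the 10 members, all 6 of class I and 3 of class II, beside 4.59% of all genes tested that were called higher. The median log2 fold change was 0.39 over class I and 0.52 over class II, against 0.019 over all genes. DESeq2 called 10 of 10, and 16.3% of all genes in either direction. No call held in the 17 libraries of GC slope below 0 or with the slope as a covariate, fits that called 0.518% and 0.446% of all genes. An unadjusted p under 0.05 was held by 5 members in the 17 libraries and 9 with the covariate, beside 15.8% of all genes in each. All 10 values stayed above 0 in both, with medians of 0.205 (class I) and 0.247 (class II) in the 17 libraries and 0.232 and 0.388 with the covariate.

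Among the class I heavy chains, H2-D1 had 33.6, 35.3 and 37.2 CPM (lowest, median, highest) in Control and 31.5, 34.4 and 43.4 in MS. It had 34.5, 44.1 and 48.8 CPM in Control_EC12 and 34.8, 51.9 and 60.2 in MS_EC12. In each rearing the ranges overlapped, with 5 of 6 Control_EC12 libraries above every Control library and 4 of 6 MS_EC12 libraries above every MS library. The averaged difference was 0.38 ± 0.081 on the log2 scale (edgeR adjusted p = 0.0179). It was 0.17 in the 17 libraries (adjusted p = 0.148) and 0.20 with the covariate (adjusted p = 0.0789).

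H2-K1 had 18.4, 21.2 and 21.8 CPM in Control and 20.0, 26.3 and 32.1 in Control_EC12. In MS it had 17.5, 19.2 and 24.2 CPM, and in MS_EC12 17.6, 29.4 and 34.0. The MS_EC12 libraries fell apart, the pair with a GC slope below 0 at a mean of 19.0 CPM and the other 4 at 31.7. The averaged difference was 0.39 ± 0.097 (edgeR adjusted p = 0.0283), and 0.10 in the 17 libraries (adjusted p = 0.566).

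B2m, the light chain, had 65.4, 67.9 and 78.4 CPM in Control, 67.3, 70.4 and 80.5 in MS, 69.7, 82.0 and 109 in Control_EC12, and 78.2, 88.9 and 106 in MS_EC12. In each rearing 5 of 6 supplemented libraries lay above every unsupplemented library. The averaged difference was 0.31 ± 0.063 (edgeR adjusted p = 0.0177), and 0.20 in the 17 libraries.

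The peptide transporter and the immunoproteasome subunit moved in the same direction. Tap1 had medians of 2.06 CPM in Control, 2.07 in MS, 3.12 in Control_EC12 and 2.94 in MS_EC12, and its averaged difference was 0.54 ± 0.103 (edgeR adjusted p = 0.0135). In the 17 libraries Tap1 stood at 0.36 (adjusted p = 0.154). Tap2, its partner, differed by 0.28 ± 0.079 (edgeR adjusted p = 0.0387), from medians of 6.66 and 6.01 CPM without the supplement to 7.37 and 7.60 with it. Psmb8 differed by 0.45 ± 0.119 (edgeR adjusted p = 0.0328), with medians of 2.06 and 2.37 CPM without the supplement and 2.90 and 3.26 with it, and was at 0.21 in the 17 libraries (adjusted p = 0.403).

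In the class II arm, Cd74 had 3.87, 4.38 and 5.12 CPM in Control and 4.94, 7.10 and 9.76 in Control_EC12. In MS it had 3.08, 5.06 and 5.90 CPM, and in MS_EC12 4.03, 6.39 and 8.26. Control_EC12 was the highest group, and the MS and MS_EC12 ranges overlapped more widely. The averaged difference was 0.53 ± 0.125 (edgeR adjusted p = 0.0242), and 0.23 in the 17 libraries.

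H2-Ab1 had 2.14, 2.40 and 3.11 CPM in Control, 1.78, 2.20 and 3.38 in MS, 2.98, 3.87 and 5.16 in Control_EC12, and 1.87, 3.46 and 4.52 in MS_EC12. Its averaged difference, 0.58 ± 0.127 (edgeR adjusted p = 0.0199), was the largest of the 10 in all 24 libraries. In the 17 libraries it was below Tap1 (0.36), at 0.33 (edgeR adjusted p = 0.288). With the covariate H2-Ab1 stood at 0.46 (edgeR adjusted p = 0.106). H2-Aa, its partner chain, had medians of 2.96, 2.39, 4.05 and 3.65 CPM in the same order of groups and differed by 0.50 ± 0.153 (edgeR adjusted p = 0.0471), but by 0.15 in the 17 libraries (adjusted p = 0.717). H2-Eb1, with medians of 2.12, 2.59, 3.30 and 2.96 CPM, was at 0.36 ± 0.123 and did not pass (edgeR adjusted p = 0.0615). None of the 6 MS_EC12 libraries exceeded the highest MS library for H2-Eb1, which was replicate 2 at 3.93 CPM.

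Leaving out a single library changed the averaged calls of some genes. When each of the 24 libraries was left out in turn, H2-D1, B2m, Tap1 and H2-Ab1 were called in 24 of 24 fits and Cd74 in 23. H2-K1 was called in 18, Psmb8 in 15, Tap2 in 9, H2-Aa in 6 and H2-Eb1 in 3. The count of members fell to 5 without MS replicate 2, 4 or 5 or MS_EC12 replicate 3 or 6, and to 4 without MS_EC12 replicate 4. In that order these fits called 2.1%, 1.78%, 1.15%, 1.69%, 1.37% and 1.38% of all genes, against 7.88% with all libraries. Over the 24 fits the log2 fold change ran from 0.24 to 0.31 for Tap2, 0.43 to 0.58 for H2-Aa and 0.31 to 0.43 for H2-Eb1.

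**Figure D2:**
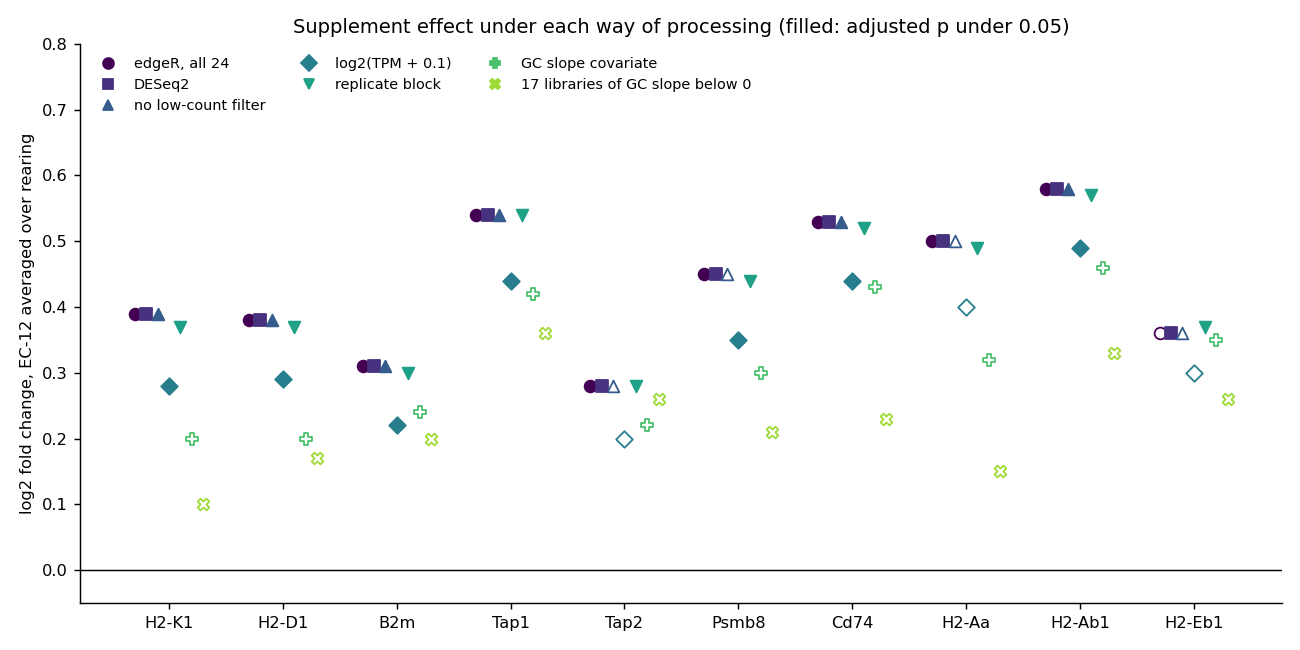
Log2 fold change for EC-12 averaged over rearing (vertical axis) of each member (horizontal axis) under 7 ways of processing, filled where the adjusted p was under 0.05. All values lie above 0, and none is filled in the 17 libraries of GC slope below 0 or with the slope as a covariate.

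Within normal rearing, no member passed in Control_EC12 against Control, where 0.0218% of all genes were called. All 10 values were above 0, from 0.19 for Tap2 to 0.69 for Cd74, and 9 had an unadjusted p under 0.05, beside 5.62% of all genes with such a p and a higher value. The class II median was 0.60 and the class I median 0.32. Cd74 stood at 0.69 ± 0.177 (edgeR adjusted p = 0.164) and H2-Ab1 at 0.66 ± 0.179 (edgeR adjusted p = 0.199). DESeq2 called Cd74 and no other member, beside 0.403% of all genes. The 10 values ranged from 0.20 to 0.61 in the 17 libraries and from 0.16 to 0.65 with the GC covariate. An unadjusted p under 0.05 was held by 8 members in the 17 libraries, beside 13.9% of all genes. With the covariate 9 members had such a p, beside 14% of all genes. No member was called in either.

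Within maternal separation, no member passed in MS_EC12 against MS, where 0.163% of all genes were called. All 10 values were again above 0, from 0.18 for H2-Eb1 to 0.55 for Tap1, and 8 had an unadjusted p under 0.05, beside 15.5% of all genes. The medians were 0.42 in both arms. H2-D1 stood at 0.47 ± 0.114 (edgeR adjusted p = 0.0753) and Tap1 at 0.55 ± 0.146 (edgeR adjusted p = 0.0754), and DESeq2 called 5 members, all of class I, beside 10.3% of all genes. Leaving out single libraries gave 5, 3, 6 and 7 calls without MS replicate 3, Control_EC12 replicate 4, MS_EC12 replicate 1 and MS_EC12 replicate 2, in fits that called 21.3%, 4.85%, 27.2% and 24.9% of all genes. In the 17 libraries, with 2 MS_EC12 libraries left, H2-K1 (-0.05), Psmb8 (-0.09), Cd74 (-0.14) and H2-Aa (-0.03) turned below 0 and the median was 0.0865. With the covariate all 10 values were above 0, from 0.15 to 0.38, with a median of 0.207. There 4 members had an unadjusted p under 0.05, beside 7.44% of all genes, and none was called. MS_EC12 replicate 6 had 642 CPM of Ttr, a choroid plexus transcript, and MS replicate 3 had 54.8, against at most 4.64 in the other libraries. Both had a GC slope above 0 and so were not among the 17 libraries. Without MS_EC12 replicate 6 no member and no other gene was called, and without MS replicate 3 there were 5 member calls, as given above. The part of choroid plexus tissue in the result was not tested.

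Maternal separation was accompanied by no call among the members in any comparison. In MS against Control no member passed by edgeR or DESeq2 or had an unadjusted p under 0.05, beside 0.0326% of all genes called and 3.6% with such a p. The values ran from -0.23 ± 0.220 for H2-Aa to 0.26 ± 0.171 for Psmb8. In MS_EC12 against Control_EC12 there was likewise no call by edgeR or DESeq2 and no unadjusted p under 0.05, beside 0.261% and 15.9% of all genes. There the 4 class II values were all below 0, from -0.28 ± 0.213 for H2-Aa to -0.17 ± 0.171 for H2-Eb1, and 5 of 6 class I values were above 0. In the 17 libraries all 10 values were below 0, with a class I median of -0.229, and 3 had an unadjusted p under 0.05, H2-K1 (-0.39), H2-D1 (-0.19) and Cd74 (-0.59), beside 11.1% of all genes. With the covariate H2-Aa (-0.46) and H2-Ab1 (-0.38) had such a p, beside 8.39% of all genes, and 2 of 6 class I values were above 0. No member was called in either. Averaged over supplement, separation gave 0 calls by both tools and 0 at an unadjusted p under 0.05, beside 0.288% and 12% of all genes, with values from -0.26 ± 0.153 for H2-Aa to 0.20 ± 0.119 for Psmb8. In the 17 libraries 9 of 10 averaged values were below 0, and H2-K1 (-0.23), H2-D1 (-0.12) and H2-Aa (-0.38) had an unadjusted p under 0.05, beside 15.7% of all genes. With the covariate H2-Aa (-0.35) did, beside 11.2%, and again no member was called.

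**Figure D3:**
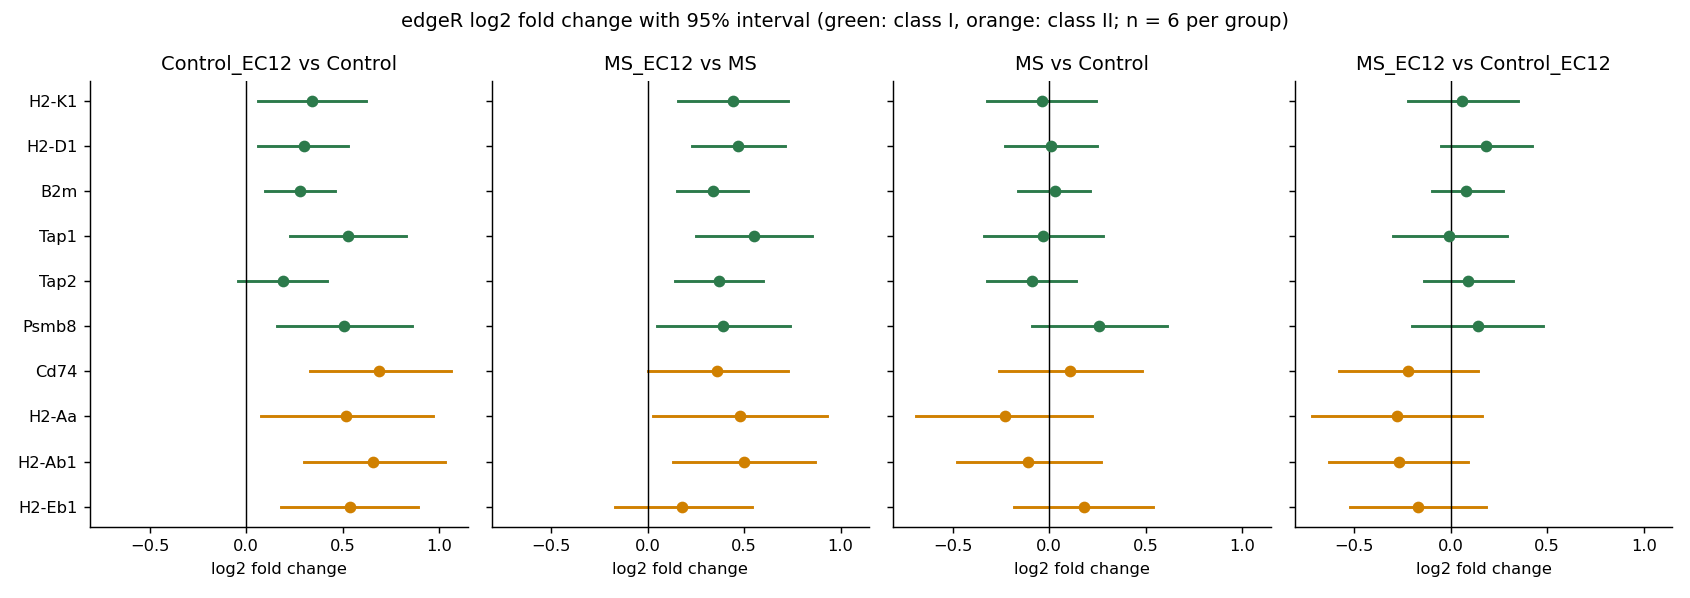
Log2 fold change with its 95% interval (horizontal axis) of each member (vertical axis) in 4 comparisons of 6 against 6 libraries, class I in green and class II in orange. All 10 points lie above 0 in both supplement comparisons, and in MS_EC12 against Control_EC12 the 4 class II points lie below 0.

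The test of whether the supplement difference depended on rearing is the interaction, and it gave 0 calls by edgeR and DESeq2 and 0 members at an unadjusted p under 0.05, beside 0.0109% and 4.8% of all genes. The 4 class II values were below 0, from -0.35 ± 0.245 for H2-Eb1 (95% interval -0.86 to 0.15) to -0.04 ± 0.307 for H2-Aa, with a median of -0.247. The class I values ran from -0.12 to 0.18, with a median of 0.0802. In the 17 libraries the class I median was -0.18, and Cd74 (-0.75) and Psmb8 (-0.60) had an unadjusted p under 0.05, beside 6.53% of all genes, with no call. With the covariate the class I median was -0.0496 and no member had such a p. The 95% intervals were wide beside the supplement differences, from -0.16 to 0.51 for H2-D1 and from -0.68 to 0.36 for H2-Ab1, so this test does not show that the rearings acted alike.

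The arms were also set side by side in each library as the mean log2 CPM of the arm minus its Control mean, described without a test. Class I had medians of -0.02 in Control, 0.01 in MS, 0.33 in Control_EC12 and 0.47 in MS_EC12. Class II had medians of 0.06, -0.02, 0.62 and 0.38 in the same order. Every Control_EC12 library lay above every Control library for class I (lowest 0.13 against highest 0.07), and for class II the ranges overlapped (lowest 0.16 against highest 0.20). The MS_EC12 and MS ranges overlapped in both arms, with a lowest of 0.09 against a highest of 0.22 for class I and -0.25 against 0.44 for class II. How many other genes or sets of genes separate these groups was not counted. Class II minus class I had a median of 0.22 in Control_EC12 and -0.08 in MS_EC12. Class II varied more within groups, from -0.45 to 0.44 in MS, where class I ran from -0.11 to 0.22.

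**Figure D4:**
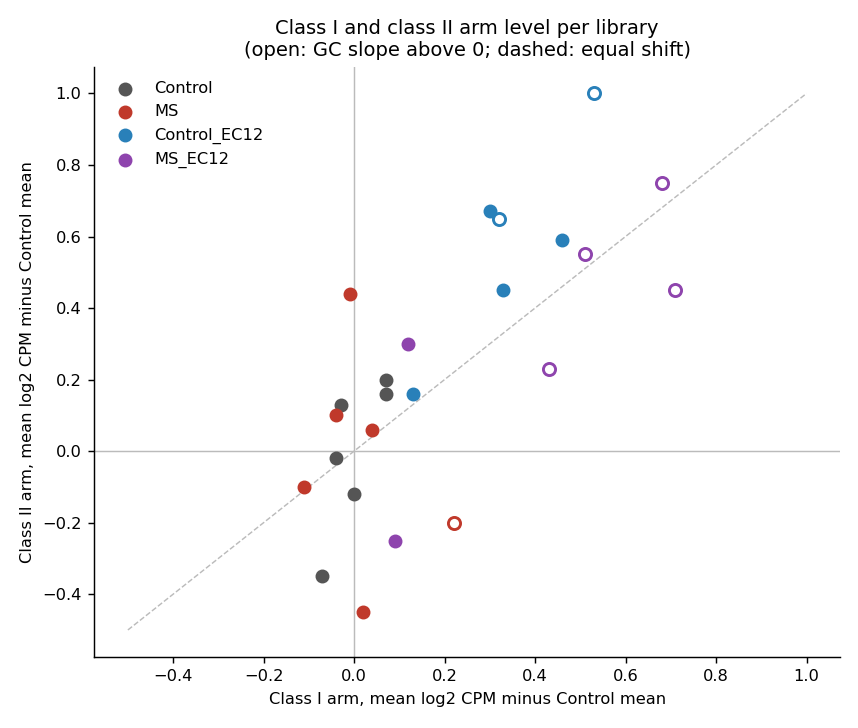
Class II arm level against class I arm level of 24 libraries, each as mean log2 CPM minus the Control mean; open circles have a GC slope above 0 and the dashed line marks equal shifts. The 6 Control_EC12 libraries lie above the line, and the 4 open MS_EC12 circles lie to the right of the filled ones.

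Over the 24 libraries, after group means were removed, the class I level had r = 0.72 with the GC slope and 0.68 with the summed microglial markers, and the class II level had 0.35 and 0.29. Within class I, 15 pairs of genes had r from 0.08 to 0.88 with a median of 0.41, and within class II 6 pairs had 0.42 to 0.91 with a median of 0.60. Between arms, 24 pairs had a median of 0.33. H2-Aa and H2-Ab1 were each other's nearest of 18379 genes at r = 0.91, and no other member had a member as its nearest gene. H2-K1 and H2-D1 had r = 0.88, where H2-D1 ranked 2 for H2-K1 and H2-K1 ranked 15 for H2-D1. For the remaining members the nearest member ranked from 3 (Cd74) to 1713 (Tap1). Closest to the class I arm were Irf2bp2 (r = 0.91), Pcolce (0.86), Cd63, Vtn and Apoe (0.85 each), and closest to the class II arm were Acyp2 and Pcolce (0.77 each), Gfap, Fbl and Atrip-trex1 (0.76 each). These genes share libraries, depth and GC dependence with the members.

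Other genes of the pathway, for EC-12 averaged over rearing, are given by list. Of 11 tested class I heavy chains beside the members, 4 were higher: H2-Q4 (0.54), H2-Q1 (0.36), H2-T23 (0.34) and H2-T22 (0.21), with a list median of 0.34. Of 11 genes of class I peptide supply and loading, the immunoproteasome subunits Psmb9 (0.61) and Psmb10 (0.34) were higher, the chaperone Canx was lower (-0.19), and the median was 0.131. None of 12 genes on the other class II list passed in edgeR, with a median of 0.15. That list also held Cd40, Cd80 and Cd86, which are neither class II chains nor loading genes. Those of smallest p were Ifi30 (0.28), a thiol reductase of the endocytic route, H2-DMb2 (0.52), a chain of the peptide exchange molecule, and Lgmn (0.13). At an unadjusted p under 0.05 stood 4 of the 12, with H2-DMa (0.16) the fourth, and DESeq2 called 0. The share of all genes at such a p was not counted for this comparison. It is at least the 7.88% called in either direction, so whether 4 of 12 exceeds it is not known.

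Of 14 tested regulators, Rfxank (0.20), a subunit of the RFX complex, and the interferon gamma receptor chain Ifngr1 (0.17) were higher and Nfya (-0.18), an NF-Y subunit, was lower. Ciita, the class II coactivator, had a mean of 0.256 CPM and Ifng had 3 counts in all 24 libraries. Ciita (0.02) and Nlrc5 (0.33) did not pass in edgeR. Of 20 interferon-stimulated genes 6 were higher, Irf7 (0.70), Oasl2 (0.62), Bst2 (0.58), Isg15 (0.55), Ifitm3 (0.42) and Ifi27 (0.31), with a median of 0.164. In the 17 libraries 2 of the 20 were called and with the covariate 1, with medians of 0.309 and 0.343, and no gene of the 4 other pathway lists was called in either.

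**Figure D5:**
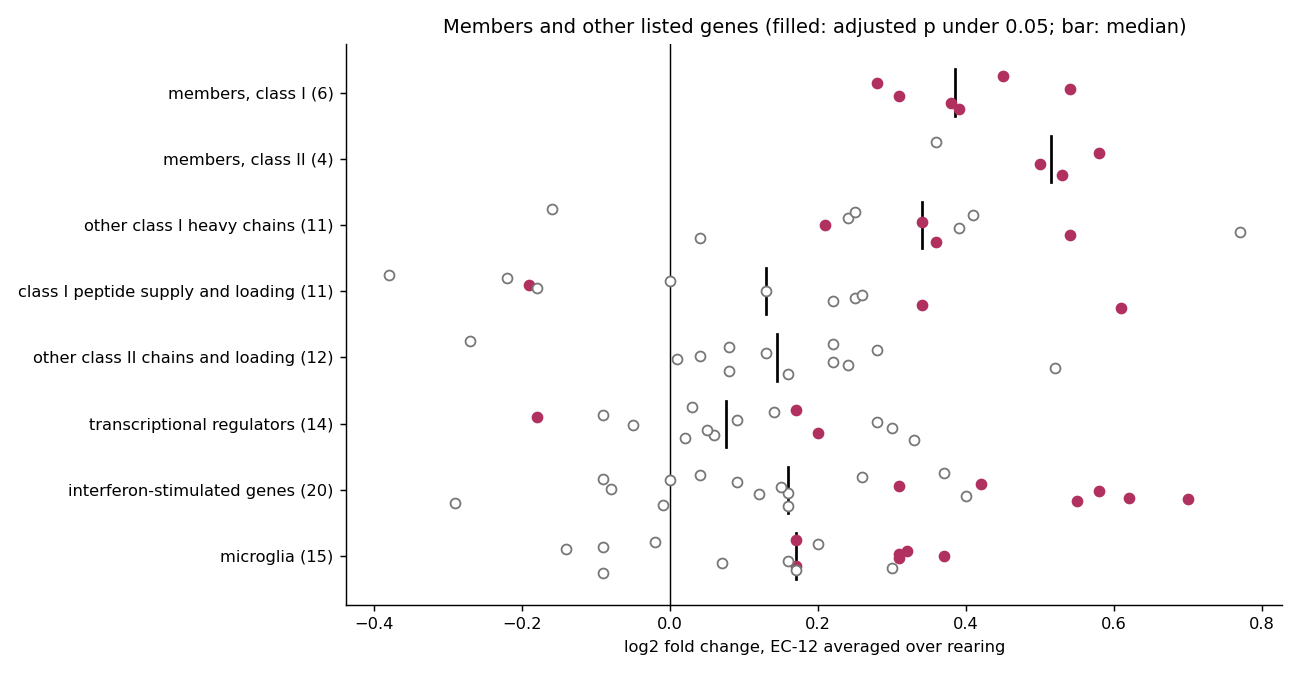
Log2 fold change for EC-12 averaged over rearing (horizontal axis) of the members, 5 other pathway lists and microglial markers, with the number of genes tested in brackets; filled points passed and bars are medians. The medians of the lists other than the members run from 0.0753 for the regulators to 0.34 for the other class I heavy chains.

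Markers of cells that could carry these transcripts were measured beside them. Of 15 microglial markers 6 were higher with EC-12, among them the complement genes C1qa (0.31), C1qb (0.37) and C1qc (0.31), Trem2 (0.32) and Fcrls (0.17), while P2ry12 was at -0.09 and Tmem119 at 0.17 without passing. None was called in the 17 libraries, where the list median was 0.0693 against 0.167, or with the covariate (0.104). Their summed CPM ran from 484 to 566 in Control, 498 to 575 in MS, 556 to 638 in Control_EC12 and 534 to 671 in MS_EC12. Of 5 tested blood markers 4 were higher, and 1 of 10 border macrophage, 1 of 10 endothelial and 1 of 10 meningeal fibroblast markers (Slc6a13, 0.48). Over all genes 4.59% were called higher. Above 0 were 6 of 10 border macrophage, 6 of 10 endothelial and 7 of 10 fibroblast values, with medians of 0.107, 0.0726 and 0.2. Of 6 astrocyte markers Gfap (0.36) and Aldh1l1 (0.21) were higher. Aqp4 (-0.32), Slc1a2 (-0.25) and Gja1 (-0.18) lay below 0 without passing in edgeR. Slc1a3 was at 0.02, and the astrocyte list median was -0.0834. No gene of the blood, border macrophage, endothelial, fibroblast or astrocyte lists was called in either GC setting. Of the lymphocyte and dendritic cell lists, some markers were near 0 and others were not. In all 24 libraries together Cd3e had 7 counts, Ms4a1 18, Xcr1 4 and Clec9a 9, whereas Trac had 304, Cd79a 289 and Cd209a 271. Ighm had a mean of 26.1 CPM, Cd4 14.3, Zbtb46 11.4, Flt3 5.33 and Lck 1.71. No tested gene of the T cell, B cell or dendritic cell lists was called with EC-12 by edgeR or DESeq2; 0 of 3, 1 of 2 and 1 of 3 had an unadjusted p under 0.05. Markers of cortical excitatory neurons, which fit the labelled tissue, summed to 3540 to 5700 CPM over the 24 libraries, and 2 of 8 were lower with EC-12, Neurod6 (-0.27) and Rorb (-0.40), neither of them called in a GC setting. Olfactory bulb markers summed to 294 to 803 CPM, with a list median of 0.873 for EC-12 averaged over rearing. None of 9 passed in edgeR, 7 had an unadjusted p under 0.05, and DESeq2 called 2, beside 16.3% of all genes. For EC-12 averaged over rearing in all 24 libraries, the share of all genes at such an unadjusted p was not counted. It is at least the 7.88% called in either direction, so these counts have no known background. The part of these cell types and tissues in the members' differences was not tested.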

How the data were processed

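The authors deposited whole-number read counts per gene, unnormalized, and TPM values per the file headers. Build mm10 and the tools HISAT2 2.1.0, StringTie 2.1.3b, Trimmomatic 0.38, FastQC 0.11.7 and DESeq2 are listed, without roles, in the submitters' processing notes. Per the labels' protocols, libraries were stranded mRNA libraries. Of the genes, 99.79% matched RefSeq (GRCm38.p6).

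Counts were filtered in edgeR 4.0.16 (R 4.3.3; minimum count 10, minimum total 15), which left 18380 genes, scaled by TMM and fitted with 4 group means over 24 libraries; tests were 2-sided. Log2 CPM used a prior count of 2. Total counts of 26250197 to 39252382 gave members 40 to 3659 counts per library. GC values covered 82.4% of genes tested. Alternatives were DESeq2 1.42.0, no filter, limma 3.58.1 on log2(TPM + 0.1) and log2(TPM + 1), the GC settings, a replicate block and leaving out each library. The fit was tested on simulated data. All members were named, as were other listed genes that passed (otherwise the 3 of smallest p), the 5 genes most like each arm, and single markers named for their level. The blood, endothelial and border macrophage lists are given by counts. Ifng, Ciita, Nlrc5, H2-DMa and the markers that did not pass were chosen after their values were seen. Members and lists were chosen with earlier results of these data known. Some listed genes are not reported here.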

Additional observations from a re-analysis of the deposited data

Results flagged for a closer look

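Of 40 sets of 6 CPM values (10 members in 4 groups), 3 held a library whose gap to the nearest other library exceeded Dixon's 95% critical value as a share of the range, which chance alone passes in about 1 of 20 sets. H2-K1 was 18.4 CPM in Control replicate 3, against 20.5 to 21.8 in the others (gap 0.638 of the range). B2m was 80.5 CPM in MS replicate 3, against 67.3 to 71.2 (0.705); this was the MS library with a GC slope above 0. H2-Eb1 was 3.93 CPM in MS replicate 2, against 2.04 to 2.69 (0.658).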

How the results depend on the processing

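For EC-12 averaged over rearing, the 9 member calls became 10 with DESeq2, 6 without the filter, 7 on either TPM scale, 0 in the 17 libraries and 0 with the GC covariate, and 4 to 10 when a library was left out; the cause was not tested. For Control_EC12 against Control, DESeq2 called 1 member, beside 0.403% of all genes. For MS_EC12 against MS, DESeq2 called 5 members, beside 10.3% of all genes, and leaving out a library gave 0 to 7. Signs turned in the 17 libraries for MS_EC12 against MS (H2-K1 -0.05, Psmb8 -0.09, Cd74 -0.14, H2-Aa -0.03), and for H2-D1 in MS_EC12 against Control_EC12 (-0.19; -0.02 with the covariate), separation averaged over supplement (-0.12; -0.02) and the interaction (-0.14; -0.01), as for Psmb8 in averaged separation (-0.08). A sign change between uncalled values was not counted where the value in all libraries lay within 1 SE of 0, as for H2-K1 in averaged separation (0.01, and -0.23 in the 17 libraries). Arm medians moved by less than 1 SD under the other prior count and TPM.

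Genes called for EC-12 averaged over rearing numbered 1448, against 2993 with DESeq2, 333 without the filter, 2359 and 2374 on TPM, 99 in the 17 libraries, 82 with the covariate and 4552 with the replicate block; 58.3% of calls were higher, against 47% with DESeq2 and 15.6% on log2(TPM + 0.1).

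With the replicate block, members called were 10 for EC-12 averaged over rearing and 5 for MS_EC12 against MS, in fits that called 24.8% and 20.7% of all genes. Of 36 same-number pairs of libraries, 13 had a correlation over 0.1 (range -0.30 to 0.575), and 5 of 24 libraries correlated best with their own number, so the numbers were not taken to pair libraries.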
